A study of Mus musculus with 6 samples.

Results

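The immunoglobulin heavy variable (Ighv) genes were followed in ovarian tumors grown in wild-type (WT) and Tgm2 knockout hosts. The set held every gene of the expression table whose symbol begins with Ighv and a number. It contained 85 of 20076 genes in 14 subgroups, where the subgroup is the number before the dash. All tumors grew from ID8 Trp53-/- Brca1-/- cells, which derive from mouse ovarian surface epithelium and lack the tumor suppressors Trp53 and Brca1, placed within the bursa of both ovaries. Tumors were taken 6 weeks later from C57BL/6 WT hosts or Tgm2 knockout hosts, with 3 tumors in each group. The authors give an age of 6 to 10 weeks for the mice used, without stating at which step. The knockout was carried by the host, and the cancer cells were the same in both groups. The labels call the cell type cancer cells, but RNA came from whole tumors, so host cells contributed. The labels number the tumors without stating that each came from a separate mouse, and p-values therefore measure the spread between these 6 tumors only.

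Tgm2, the transglutaminase gene deleted in the hosts, was examined first to check the labels. Values are given throughout in the order of the replicate numbers. The level of Tgm2 was 14978, 12155 and 13180 normalized counts in the WT tumors, against 5853, 6071 and 8157 in the knockout tumors. All knockout tumors lay below all WT tumors, in the direction of their labels, with a log2 fold change of -1.02 (limma adjusted p = 0.391). Normalized counts are read counts divided by a depth factor for each tumor, and they summed to 34801694, 35325875 and 33916288 in WT tumors and to 32316613, 35827822 and 37717165 in knockout tumors. A single read was worth between 0.942 and 1.09 normalized counts. The sums thus correspond to 33.3M to 36.9M reads per tumor assigned to the genes of the table, which is not the number sequenced.

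A B cell builds its antibody heavy chain gene by V(D)J recombination, in which a variable, a diversity and a joining segment are cut and joined. A B cell clone keeps a single productive variable gene, and plasma cells, the antibody-secreting descendants of B cells, transcribe it at a very high level together with a constant gene. Ighv transcripts in a tissue therefore reflect which clones are present as well as how many antibody-making cells there are. In bulk RNA, a change in the number of such cells and a change in RNA per cell cannot be told apart.

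The variable genes of the table lie on the minus strand of chromosome 12 of GRCm38, between 113588267 and 116000461. The GENCODE M21 annotation names 183 Ighv genes, of which 85 were in the table. It classes 83 of these as V genes and 2 as V pseudogenes, Ighv1-14 and Ighv1-62. The gene with the highest level in the knockout tumors was Ighv1-72, an Ighv1 gene at chr12:115757984-115758461. Its germline V region, read from the second exon at chr12:115757984-115758277 after removal of the leader, is 294 bases long and is shown in full because many of the comparisons involve it. The capitals mark the cysteine codons at bases 64 and 286, which encode the pair of residues that form the disulfide bond of the variable domain. These are reference sequences, and rearranged transcripts in a tumor can differ from them.
Ighv1-72: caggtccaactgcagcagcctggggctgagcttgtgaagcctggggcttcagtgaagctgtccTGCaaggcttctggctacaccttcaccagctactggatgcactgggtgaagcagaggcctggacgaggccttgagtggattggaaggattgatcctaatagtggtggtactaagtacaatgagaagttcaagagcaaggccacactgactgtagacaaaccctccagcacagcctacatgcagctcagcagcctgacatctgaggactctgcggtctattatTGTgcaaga

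The other Ighv1 genes that led usage or were called changed varied in their likeness to Ighv1-72. Over the whole V region, Ighv1-72 was 95.9% identical to Ighv1-53 and 94.6% identical to Ighv1-55, the other genes called higher. Among the other genes that led knockout tumors, its identity was 91.8% to Ighv1-50, 88.8% to Ighv1-84, 86.4% to Ighv1-4, 86.1% to Ighv1-42, 66.6% to Ighv9-3 and 53.5% to Ighv8-12. Among Ighv1 genes that led WT tumors, it was 88.1% to Ighv1-81, 87.4% to Ighv1-82, 86.1% to Ighv1-9 and 79.3% to Ighv1-11. The stretch from base 125 to base 184 is printed because it is the window of 60 bases in which the called genes and the Ighv1 genes that led knockout tumors differed most from Ighv1-72. It covers the region around the second loop that contacts antigen. Capitals mark bases that differ from Ighv1-72. Ighv1-53 differed at 8 of the 60 bases, Ighv1-55 at 9, Ighv1-84 at 11, Ighv1-4 at 14, and Ighv1-42 and Ighv1-50 at 15 each.
Ighv1-72, chr12:115758094-115758153: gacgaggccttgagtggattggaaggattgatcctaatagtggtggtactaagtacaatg
Ighv1-53, chr12:115158513-115158572: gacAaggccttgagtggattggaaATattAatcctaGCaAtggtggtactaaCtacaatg
Ighv1-55, chr12:115208205-115208264: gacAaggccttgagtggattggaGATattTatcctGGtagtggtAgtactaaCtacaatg
Ighv1-84, chr12:115980812-115980871: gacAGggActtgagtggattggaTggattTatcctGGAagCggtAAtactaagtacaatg
Ighv1-4, chr12:114487246-114487305: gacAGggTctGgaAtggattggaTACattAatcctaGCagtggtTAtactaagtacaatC
Ighv1-42, chr12:114937223-114937282: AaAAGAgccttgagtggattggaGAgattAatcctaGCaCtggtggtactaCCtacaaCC
Ighv1-50, chr12:115119858-115119917: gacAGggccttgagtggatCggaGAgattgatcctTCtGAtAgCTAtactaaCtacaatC

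Such similarity limits how reads can be assigned to single genes. Of the 366 words of 31 bases in the Ighv1-72 transcript, 31 being the default word length of the aligner, 7 were found in no other annotated Ighv transcript. It shares 294 words (80.3%) with Ighv1-62-3, at chr12:115460999-115461485, which was 99.3% identical to it over the V region. The pair differs at 2 bases, T64A and T285C, counted from the first base of the V region with the base of Ighv1-72 first. The stretches around both are shown because few other positions can separate reads of these genes, with the differing base in capitals. At base 64 the cysteine codon TGC of Ighv1-72 is AGC in Ighv1-62-3.
Ighv1-72, bases 50 to 79: cagtgaagctgtccTgcaaggcttctggct
Ighv1-62-3, bases 50 to 79: cagtgaagctgtccAgcaaggcttctggct
Ighv1-72, bases 265 to 294: gaggactctgcggtctattaTtgtgcaaga
Ighv1-62-3, bases 265 to 294: gaggactctgcggtctattaCtgtgcaaga

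The share of words found in no other Ighv transcript had a median of 53.9% over the 85 genes and was below 50% in 37 of them. Ighv1-53 had 27.1%, Ighv1-55 44.7% and Ighv1-11 98.8%, so the level of Ighv1-11 rested on far more unshared sequence than that of Ighv1-72. Splits between near-identical genes are therefore uncertain, whereas sums over a subgroup depend less on them.

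Ighv transcripts together were far more abundant in the knockout tumors. The summed Ighv value was 2165, 1662 and 3396 normalized counts in the WT tumors. It was 57972, 56468 and 97933 normalized counts in the knockout tumors. The groups did not overlap, and the means were 2408 ± 893 in WT and 70791 ± 23518 in knockout tumors (SD, n = 3 each), a 29.4-fold difference, or 4.89 as the difference of the mean log2 sums. Leaving out the 8 genes that were among the 3 most used in a knockout tumor reduced the log2 difference to 3.13. As a share of all normalized counts, Ighv genes made up 0.00622%, 0.00470% and 0.0100% in WT tumors and 0.179%, 0.158% and 0.260% in knockout tumors.

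**Figure D1:**
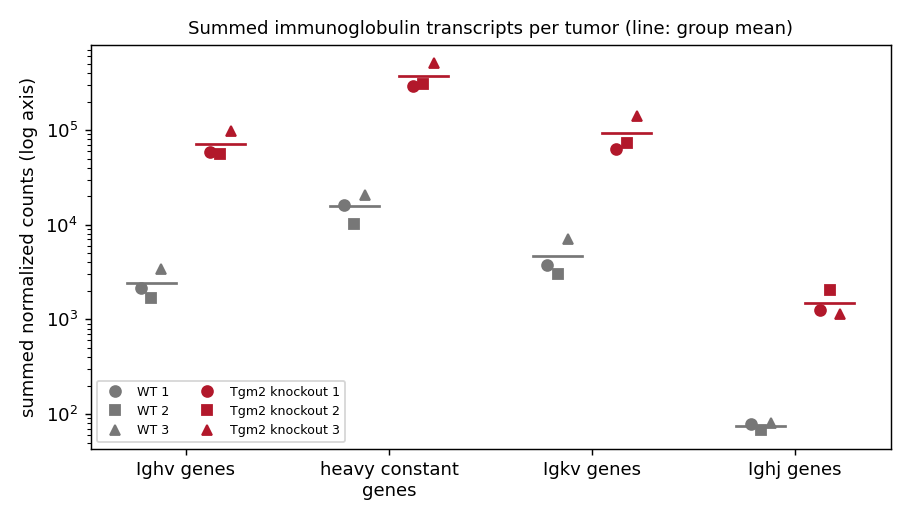
Summed normalized counts per tumor, on a log axis, of the Ighv genes, the heavy chain constant genes, the kappa variable (Igkv) genes and the heavy chain joining (Ighj) genes, with a point for each tumor and a line at each group mean. In all 4 sets the 3 knockout tumors lie above the 3 WT tumors.

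The other segments of antibody transcripts were higher in the same tumors. The 8 heavy chain constant genes, which encode the stem and determine the antibody class, summed to 16022, 10059 and 20706 normalized counts in WT tumors and 294420, 304547 and 510298 in knockout tumors, a 23.7-fold difference of the means. Ighv values amounted to 13.5%, 16.5% and 16.4% of the constant gene sum in WT tumors and 19.7%, 18.5% and 19.2% in knockout tumors, so this proportion was also higher in every knockout tumor. The 83 kappa light chain variable genes (Igkv) summed to 3789, 3035 and 7072 normalized counts in WT tumors and 62254, 73457 and 142227 in knockout tumors. The 4 Ighj genes, the joining segments, summed to 78.1, 67.4 and 80.7 in WT tumors and 1262, 2047 and 1130 in knockout tumors.

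Most Ighv genes had higher mean log2 values in knockout tumors, but few passed the test across all genes. A gene was tested where it reached at least 1 normalized count in at least 3 tumors, which left 80 of 85 Ighv genes and 19667 genes in all. Ighv1-20, Ighv1-36, Ighv1-62, Ighv2-4 and Ighv8-5 were not tested. A gene was called changed at a limma adjusted p under 0.05 and an absolute log2 fold change above 1. Of the 80 Ighv genes, 3 (3.75%) were called higher, against 0.102% of all tested genes, and 0 were called lower, against 0% of all tested genes. At an unadjusted p under 0.05 and the same fold limit, limma gave 24 Ighv genes higher and 2 lower (Ighv1-5 and Ighv1-39), against 2.5% and 1.55% of all tested genes. The knockout tumors all lay above the WT tumors for 17 Ighv genes (21.25%; all genes 5.18%) and all lay below for 1, Ighv1-5 (1.25%; all genes 5.33%). The log2 fold change was above 0 for 65 of 80 Ighv genes (81.25%; all genes 47.3%), above 1 for 55 (68.75%; all genes 6.71%) and below -1 for 10 (12.5%; all genes 7.8%). The median log2 fold change was 1.88 over the 80 Ighv genes, with quartiles of 0.49 and 3.50, and -0.03 over all tested genes. It was 1.83 over the 78 Ighv genes not listed at 0 in every tumor of a group. Fold changes are on the scale of log2(normalized count + 1), which understates the change of low genes.

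The 3 genes called higher all belonged to Ighv1. Ighv1-72 was at 79.5, 68.6 and 46.0 normalized counts in the WT tumors, against 4471, 16900 and 38932 in the knockout tumors. All knockout tumors lay far above all WT tumors, and knockout tumor 3 held 64.6% of the knockout sum. The log2 fold change was 7.81 (SE 0.67, limma adjusted p = 0.00751). Summing Ighv1-72 with the 2 genes that share over 33% of its words, Ighv1-62-3 and Ighv1-53, gave 182, 109 and 95.1 normalized counts in WT tumors and 7141, 17854 and 41118 in knockout tumors. Every WT tumor listed Ighv1-62-3 itself at 0, and the knockout tumors held 7.45, 46.7 and 38.6 normalized counts of it.

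Ighv1-53, at chr12:115158403-115158835, was at 103, 40.8 and 49.2 normalized counts in WT tumors and 2662, 907 and 2147 in knockout tumors. It was the most even of the called genes between knockout tumors, with 46.6% of the knockout sum in tumor 1. It shares over 33% of its words with each of 4 genes, Ighv1-69, Ighv1-72, Ighv1-62 and Ighv1-55. Those genes summed to 146, 116 and 133 normalized counts in WT tumors and 16499, 18048 and 47532 in knockout tumors. How much of the Ighv1-53 value came from their reads was not tested. The log2 fold change of Ighv1-53 was 4.85 (SE 0.50, limma adjusted p = 0.0143). Ighv1-55, at chr12:115208095-115208591, was at 61.7, 40.0 and 52.0 normalized counts in WT tumors and 12013, 1143 and 8595 in knockout tumors. The groups did not overlap, although knockout tumor 2 was well below the other knockout tumors. The log2 fold change of Ighv1-55 was 6.57 (SE 0.77, limma adjusted p = 0.0323). Without a variance trend in the model all 3 calls were lost (limma adjusted p = 0.0735 for Ighv1-72, 0.0830 for Ighv1-53 and 0.169 for Ighv1-55). The calls did not all survive leaving out 1 tumor either. Ighv1-72 lost its call without WT tumor 2 (limma adjusted p = 0.0692) and kept it in the 5 other cases. Ighv1-53 kept its call without WT tumor 1 or knockout tumor 2, and Ighv1-55 without knockout tumor 2 only. An exact two-sided permutation test of a single gene cannot give a p below 0.1 with 3 tumors against 3.

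Other large differences without overlap did not pass the adjusted limit. Ighv1-7 was at 4.68, 5.11 and 11.2 normalized counts in WT tumors and 4752, 73.5 and 1539 in knockout tumors (log2 fold change 6.76, SE 1.33, limma adjusted p = 0.291). Ighv1-66 was at 0.931, 0 and 1.02 in WT tumors and 46.7, 4223 and 2.21 in knockout tumors (limma adjusted p = 0.813), with 98.9% of the knockout sum in tumor 2. Ighv1-85 was at 0, 0 and 11.2 in WT tumors and 13.0, 454 and 257 in knockout tumors (limma adjusted p = 0.587). Of the knockout sum, knockout tumor 1 held 74.7% for Ighv1-7, and knockout tumor 2 held 62.7% for Ighv1-85. The single gene below all WT tumors, Ighv1-5, was low throughout, with 2.66, 17.4 and 17.3 normalized counts in WT tumors and 0, 0 and 1.61 in knockout tumors (limma adjusted p = 0.686).

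Usage by subgroup was dominated by Ighv1, which holds 46 of the 85 genes. Ighv1 took 68.6%, 38.9% and 78.1% of the summed Ighv values in WT tumors and 73.8%, 92.8% and 76.6% in knockout tumors. The mean share was 61.9% ± 20.4 in WT and 81.1% ± 10.3 in knockout tumors (SD, n = 3 each), and the groups overlapped, since WT tumor 3 lay above knockout tumors 1 and 3. The difference of 19.2 percentage points fell to 7.72 without WT tumor 2. In WT tumor 2, 34.8% of usage went to Ighv2, against 3.53% and 1.62% in the other WT tumors and 1.67%, 0.292% and 3.25% in knockout tumors. The mean Ighv2 share was lower by 11.6 percentage points in knockout tumors, and by 0.836 percentage points without WT tumor 2.

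**Figure D2:**
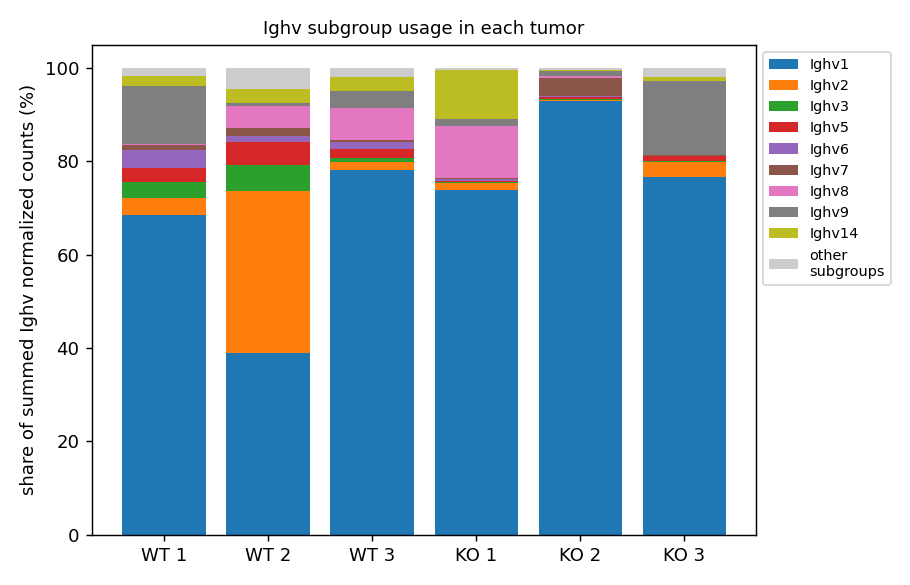
Share of the summed Ighv normalized counts (%) taken by each subgroup in each tumor, as stacked bars for WT tumors 1 to 3 and Tgm2 knockout (KO) tumors 1 to 3, with Ighv4, Ighv10, Ighv11, Ighv12 and Ighv13 added together as other subgroups. Ighv1 is the largest block in all tumors, and Ighv2 takes 34.8% in WT tumor 2 alone.

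Several small subgroups took a lower share in every knockout tumor. The shares did not overlap and were lower in knockout tumors for 6 of 14 subgroups (Ighv3, Ighv4, Ighv5, Ighv6, Ighv11 and Ighv12), were higher without overlap for 0, and overlapped for 8. Ighv3 took 3.59%, 5.60% and 0.99% in WT tumors and 0.0485%, 0.345% and 0.127% in knockout tumors. Ighv5 took 2.85%, 4.75% and 1.89% in WT tumors and 0.304%, 0.253% and 1.05% in knockout tumors. Ighv6 took 3.93%, 1.41% and 1.48% in WT tumors and 0.328%, 0.222% and 0.127% in knockout tumors. Ighv4 was at 9.35, 15.4 and 3.06 normalized counts in WT tumors and 11.3, 4.90 and 26.6 in knockout tumors. With values under 10 set to 0, its mean share was still lower, at 0.332% in WT and 0.0156% in knockout tumors. WT tumors 1 and 3 then fell to 0, so that the Ighv4 shares overlapped. A lower share is not a lower level, since the shares of a tumor sum to a fixed total. Ighv6 summed to 85.0, 23.5 and 50.2 normalized counts in WT tumors and to 190, 125 and 124 in knockout tumors, all of them higher. The sums lay above all WT tumors without overlap for 8 subgroups (Ighv1, Ighv5, Ighv6, Ighv7, Ighv9, Ighv11, Ighv13 and Ighv14), lay below for 0, and overlapped for 6.

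Ighv11 consisted of a single gene in the table, Ighv11-2, a variable gene known for its use by B-1 cells that produce natural antibodies. Its share was nearly the same in the 3 WT tumors, at 0.864%, 0.804% and 0.841%, and was 0.06%, 0.368% and 0.397% in knockout tumors. The level of Ighv11-2 was 18.7, 13.4 and 28.6 normalized counts in WT tumors and 34.8, 208 and 389 in knockout tumors (log2 fold change 2.82, SE 0.88, limma adjusted p = 0.699). Ighv12-3, the single Ighv12 gene and likewise used by B-1 cells, was at 3.73, 9.18 and 2.05 in WT tumors and 2.81, 25.4 and 58.1 in knockout tumors. The Ighv12 shares were separated by a small margin, with 0.0603% as the lowest WT value and 0.0594% as the highest knockout value. With values under 10 set to 0, the direction reversed, and the mean Ighv12 share was 0 in WT and 0.0349% in knockout tumors.

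The remaining subgroups with larger shares rose and sank tumor by tumor. Ighv8 took 0.289%, 4.73% and 6.88% in WT tumors and 11.3%, 0.394% and 0.0164% in knockout tumors. Ighv9 took 12.4%, 0.778% and 3.65% in WT tumors and 1.47%, 1.07% and 15.9% in knockout tumors. Ighv14 took 2.11%, 2.88% and 2.92% in WT tumors and 10.5%, 0.267% and 0.888% in knockout tumors. In each of these, a single knockout tumor lay above all other tumors and the other knockout tumors lay low. A single gene made up most of each high value. Ighv8-12 took 11.2% in knockout tumor 1, Ighv9-3 took 15.8% in knockout tumor 3, and Ighv14-2 took 10.1% in knockout tumor 1. By the mean over all 6 tumors, which the knockout tumors dominate, the most abundant genes of the smaller subgroups were Ighv2-9, Ighv3-6, Ighv4-1, Ighv5-17, Ighv6-3, Ighv7-3, Ighv10-1 and Ighv13-2, and none of them passed the adjusted limit. Among these, Ighv7-3 reached 2149 normalized counts in knockout tumor 2, against 73.0 and 54.7 in the other knockout tumors and 21.5, 26.5 and 3.07 in WT tumors.

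The leading genes differed between most tumors, with some shared. WT tumor 1 was led by Ighv1-11 (14.8%), Ighv1-81 (13.9%) and Ighv9-3 (11.3%). WT tumor 2 was led by Ighv2-6 (29.2%), Ighv2-2 (5.46%) and Ighv8-8 (4.73%), and WT tumor 3 by Ighv1-11 (36.5%), Ighv1-82 (9.45%) and Ighv1-9 (6.45%). Ighv1-11 led 2 WT tumors but took 0.0775%, 0.14% and 0.238% in the knockout tumors. Knockout tumor 1 was led by Ighv1-55 (20.7%), Ighv1-42 (15.6%) and Ighv8-12 (11.2%). Knockout tumor 2 was led by Ighv1-72 (29.9%), Ighv1-84 (14.3%) and Ighv1-50 (10.8%), and knockout tumor 3 by Ighv1-72 (39.8%), Ighv1-4 (22.9%) and Ighv9-3 (15.8%).

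**Figure D3:**
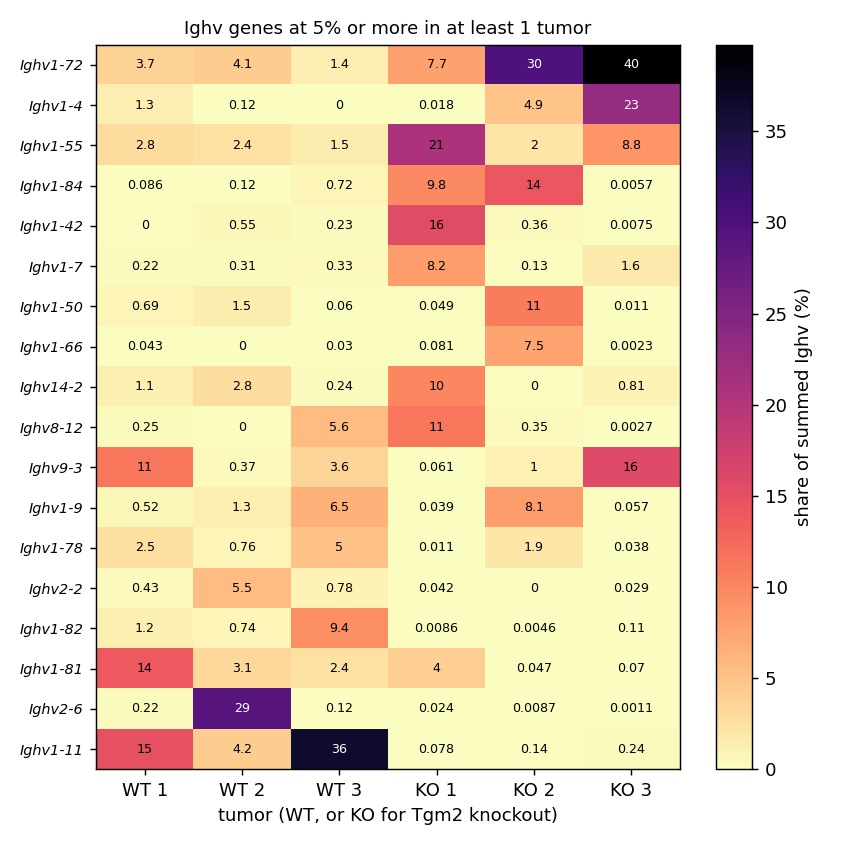
Share of the summed Ighv normalized counts (%) in each tumor for the 18 Ighv genes that reached 5% in at least 1 tumor, with the share written in each cell. Ighv1-72 is above 5% in all 3 knockout tumors, and no other gene is above 5% in all tumors of a group.

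The same gene could be high in a single knockout tumor and nearly missing from the others. Of the 12 genes that reached 5% in a knockout tumor, 9 did so in 1 tumor, Ighv1-55 and Ighv1-84 in 2, and Ighv1-72 in all 3. More than 90% of the summed knockout value came from a single tumor for 6 of these 12 genes, and for 24 of all 85 Ighv genes. Ighv1-42 took 15.6% in knockout tumor 1, 0.36% in tumor 2 and 0.00748% in tumor 3, and 97.7% of its knockout sum came from tumor 1. Ighv1-50 took 0.0486%, 10.8% and 0.0114% in knockout tumors 1 to 3, and 99.4% of its knockout sum came from tumor 2. Ighv1-84 took 9.77% and 14.3% in knockout tumors 1 and 2 but 0.00571% in tumor 3. In WT tumors 9 genes reached 5%, of which Ighv1-11 did so in 2 tumors and the others in 1. At the lower limit of 1%, 43 genes were reached in a WT tumor and 6 in all WT tumors (Ighv1-11, Ighv1-53, Ighv1-55, Ighv1-64, Ighv1-72 and Ighv1-81), against 23 in a knockout tumor and 3 in all knockout tumors (Ighv1-53, Ighv1-55 and Ighv1-72). The 3 called genes were thus the only genes at 1% or more in every tumor of both groups. They share words with each other, and the part of shared reads in these values was not tested.

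Usage was spread over fewer genes in the knockout tumors. The number of genes needed to reach 90% of the summed Ighv value was 28, 28 and 24 in WT tumors and 9, 11 and 6 in knockout tumors. The 10 most used genes took 66.3%, 63.4% and 75.5% in WT tumors and 93.3%, 88.4% and 96.3% in knockout tumors. The effective number of genes, which is the number of equally used genes that would give the same Shannon entropy, was 25.4, 22.5 and 15.8 in WT tumors and 11.5, 11.7 and 6.18 in knockout tumors. Its mean was 21.2 ± 4.91 in WT and 9.77 ± 3.11 in knockout tumors (SD, n = 3 each), without overlap. The difference of -11.5 shrank to -7.10 with values under 10 set to 0. The inverse Simpson index, which weights the leading genes more, was 14.6, 9.64 and 6.35 in WT tumors and 8.58, 7.06 and 4.08 in knockout tumors, and here the groups overlapped. The leading gene by itself did not separate the groups, with 14.8%, 29.2% and 36.5% in WT tumors and 20.7%, 29.9% and 39.8% in knockout tumors.

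**Figure D4:**
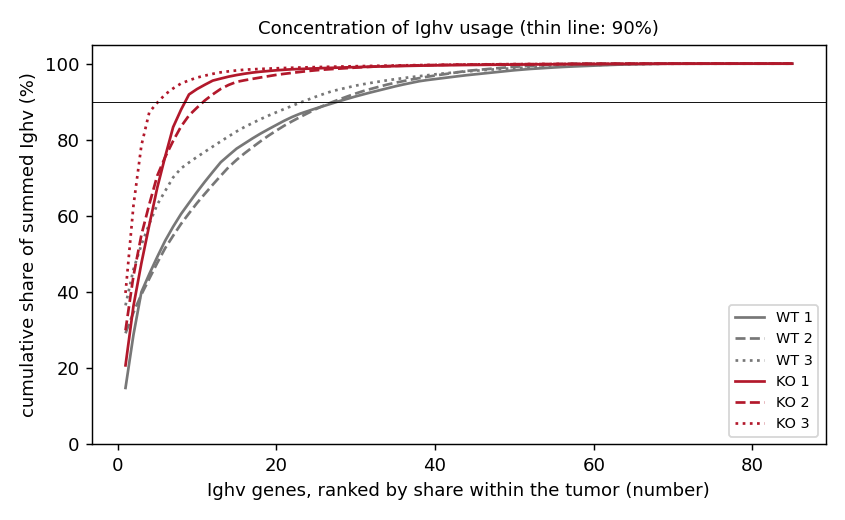
Cumulative share of the summed Ighv normalized counts (%) against the number of Ighv genes, ranked by share within each tumor, with a thin line at 90%. The knockout curves cross 90% at 9, 11 and 6 genes and the WT curves at 28, 28 and 24.

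The number of genes detected at full depth moved the other way. Values above 0 were found for 69, 58 and 69 of the 85 genes in WT tumors and for 78, 72 and 78 in knockout tumors. At least 10 normalized counts were reached by 36, 31 and 35 genes in WT tumors and by 51, 45 and 51 in knockout tumors. With every tumor brought down to 1600 Ighv counts, just below the total of WT tumor 2, the expected number of genes detected was 66.9, 57.9 and 63.0 in WT tumors and 38.7, 40.8 and 33.7 in knockout tumors. Many WT values rest on a few reads, so that a gene listed at 0 in a WT tumor was not detectable at this depth rather than shown to be unused.

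The overlap of usage was compared between pairs of tumors. Shared usage was taken as the sum, over genes, of the smaller of both shares in a pair of tumors. It was 37.8%, 43.6% and 27.6% for the 3 pairs of WT tumors and 25.2%, 22.8% and 41.7% for the 3 pairs of knockout tumors. For the 9 pairs of a WT and a knockout tumor it ranged from 11.8% to 26.7%, with a median of 20.1%. Of the 3 knockout pairs, 2 lay below every WT pair and within the range of the mixed pairs. The highest value among knockout pairs was that of tumors 2 and 3, both led by Ighv1-72. The pairs share tumors and are given as a description.

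Usage also differed along the locus. The distance of each Ighv gene from the joining genes was taken from GENCODE M21, and its median over the 85 genes was 1218 kb. Genes farther than this took 47.7%, 36.1% and 41.2% of usage in WT tumors and 76.7%, 79.9% and 51.8% in knockout tumors, without overlap. This separation rested on Ighv1-72 in knockout tumor 3. Without that gene the shares were 45.7%, 33.3% and 40.4% in WT tumors and 74.7%, 71.3% and 20.1% in knockout tumors, so that the groups overlapped. The mean distance weighted by usage was 1450, 1012 and 1523 kb in WT tumors and 1703, 1961 and 1564 kb in knockout tumors, which were separated by a smaller margin. Ighv1-72, at 2329 kb and with 39.8% of usage in knockout tumor 3, also enters this mean. Taking that gene out of the mean places knockout tumor 3 between WT tumors 2 and 1, so that the groups overlap here too. The subgroups are partly intermixed along the locus, with Ighv2 between 159 and 450 kb and Ighv5 between 169 and 430 kb. Ighv1, which holds 46 of the 85 genes, lies between 1058 and 2571 kb, on both sides of the median distance. Within that stretch lies Ighv8, between 1639 and 2219 kb. Among the 29 most distal genes, of which 28 were tested, the median log2 fold change was 2.64. It was 1.06 for the 25 tested genes of the middle stretch and 1.91 for the 27 tested genes nearest to the joining genes. The median was above 0 in all 3 stretches.

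**Figure D5:**
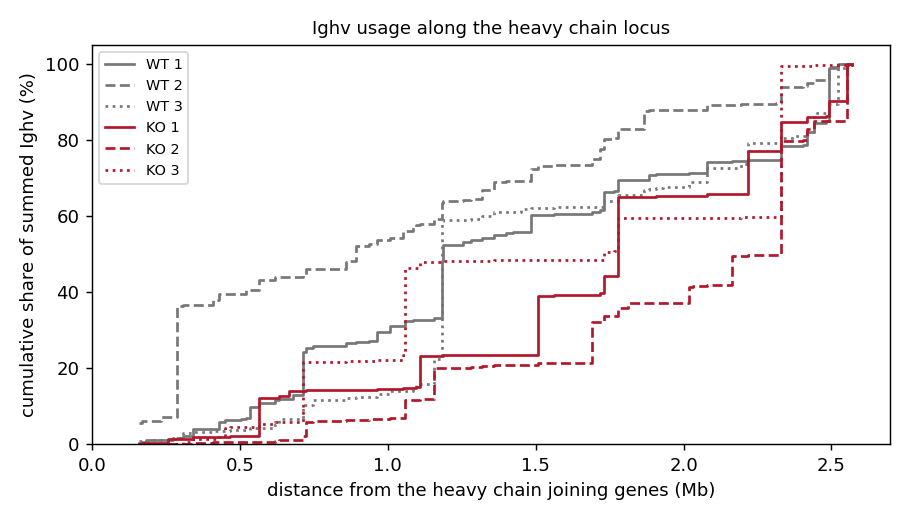
Cumulative share of the summed Ighv normalized counts (%) against distance from the heavy chain joining genes (Mb), with a line for each tumor. Each step is a gene, the steep steps are the leading genes, and at the median distance of 1218 kb the 3 knockout lines lie below the 3 WT lines.

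Genes that act on the Ighv locus were listed to show their levels beside it. Of the 12 V(D)J recombination genes in the table, 0 were called higher (all genes 0.102%) and 0 lower (all genes 0%) by limma, and the median log2 fold change was -0.01. Rag2, part of the recombinase, was at 5.68, 0 and 19.2 normalized counts in WT tumors and 3.79, 0 and 2.15 in knockout tumors, and Dntt, which adds bases at the joints, was at 8.02, 8.17 and 3.97 in WT tumors and 2.53, 4.81 and 16.4 in knockout tumors. Both were thus near the limit of detection in most tumors. Of 14 genes of somatic hypermutation and class switching, 0 were called, against the same shares of all genes, and 1 lay higher and 1 lower without overlap (all genes 5.18% and 5.33%), with a median of -0.07.

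Among 12 transcription factors that act on immunoglobulin genes, 1 was called higher (all genes 0.102%), 5 lay higher without overlap (all genes 5.18%), and the median log2 fold change was 0.61. Pou2af1, the coactivator that acts with octamer-binding factors at Ighv promoters, was at 68.2, 30.2 and 102 normalized counts in WT tumors and 681, 708 and 1149 in knockout tumors (log2 fold change 3.76, limma adjusted p = 0.0439). Irf4, needed for plasma cell formation, was at 106, 35.6 and 95.6 in WT tumors and 499, 310 and 575 in knockout tumors (log2 fold change 2.63, limma adjusted p = 0.264). Of the 8 constant genes, 3 were called higher (Igha, Ighg2b and Ighg2c), against 0.102% of all tested genes, and 5 lay higher without overlap, against 5.18%, with a median log2 fold change of 3.62. Igha, the constant gene of the IgA class, was at 4495, 5408 and 6483 in WT tumors and 192147, 197269 and 373965 in knockout tumors. Ighm, the constant gene of the IgM class, was at 6869, 1926 and 2681 in WT tumors and 9546, 10525 and 17862 in knockout tumors, a smaller difference (log2 fold change 1.89, limma adjusted p = 0.542). Ighg1, the constant gene of the IgG1 subclass, was at 161, 115 and 806 in WT tumors and 43621, 12130 and 6936 in knockout tumors (log2 fold change 5.96, limma adjusted p = 0.0657). Ighg3, the constant gene of the IgG3 subclass, was at 1192, 488 and 6155 in WT tumors and 497, 234 and 569 in knockout tumors, so that the groups overlapped (log2 fold change -1.92, limma adjusted p = 0.845). Igkc, the kappa constant gene, was at 8870, 6618 and 14622 in WT tumors and 129652, 151166 and 300054 in knockout tumors.

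Levels of cell type markers are given beside the summed Ighv value. The lists are not independent of the transcription factors above. The plasma cell list shares Pou2af1, Irf4, Xbp1 and Prdm1 with them, and the B cell list shares Pax5. Pou2af1 is thus counted as called in both places. Of 14 plasma cell markers, 3 were called higher (all genes 0.102%) and 12 lay higher without overlap (all genes 5.18%), with a median log2 fold change of 1.72. They summed to 19452, 22277 and 15568 normalized counts in WT tumors and 66516, 89703 and 93486 in knockout tumors, and the most abundant in knockout tumors was Jchain, which links IgA and IgM units, at 1461, 2231 and 2511 in WT tumors and 42273, 62782 and 67245 in knockout tumors. Of 10 B cell markers, 1 was called higher and 6 lay higher without overlap, against the same 0.102% and 5.18% of all genes, with a median of 1.01. The B cell markers summed to 812, 513 and 659 in WT tumors and 1751, 1647 and 2514 in knockout tumors, with Cd79a, a signalling chain of the B cell receptor, as the most abundant in knockout tumors. Of 8 germinal centre markers, 0 were called and 2 lay higher without overlap, with a median of 0.13. Their sums overlapped, with 3861, 3690 and 3251 in WT tumors and 3492, 3987 and 4098 in knockout tumors. The 4 surrogate light chain and precursor genes in the table summed to 216, 285 and 180 in knockout tumors and 32.0, 74.1 and 64.0 in WT tumors, of which Vpreb3, also made outside precursor cells, gave 200.2, 266 and 156 in the knockout tumors.

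Other tissue markers were also measured, since host tissue next to the ovary can enter a sample. Of 8 white adipocyte markers, 1 was called higher (all genes 0.102%) and 4 lay higher without overlap (all genes 5.18%), with a median log2 fold change of 2.08, and they summed to 11409, 25405 and 10128 normalized counts in WT tumors and 20334, 117803 and 52033 in knockout tumors. The most abundant was Cfd, and no marker of the list was at 0. Of 6 lymph node stroma markers in the table, 0 were called and 0 lay higher without overlap, with a median of 0.27, and their sums overlapped, with 3761, 2290 and 3282 in WT tumors and 3576, 2381 and 2145 in knockout tumors, Ccl21a being the most abundant. Of 8 T cell markers, 0 were called and 3 lay higher without overlap, with a median of 0.84, and they summed to 1908, 1269 and 1143 in WT tumors and 2010, 2179 and 3580 in knockout tumors. The part of these tissues in the Ighv values was not tested.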

How the data were processed

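RNA of 3 WT and 3 Tgm2 knockout tumors was sequenced after poly(A) enrichment with paired reads of 100 nucleotides. The authors quantified transcripts with kallisto (0.46.2 and GRCm38 per the submitters' processing notes), summed them to genes through biomaRt, removed low genes and divided by DESeq2 size factors. The Ensembl release is not given in the sources used here. The deposited values are a signal in normalized counts, although the table is named for TPM. They are not whole numbers, and steps of whole reads were clear for genes with 1 transcript only, so no count model was used.

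Values were tested as log2(value + 1) with limma 3.58.1 in R 4.3.3, with a variance trend, no covariate and all 6 tumors, in genes with at least 1 in at least 3 tumors. Two-sided p-values were adjusted by Benjamini-Hochberg across 19667 genes. The model was tested on simulated data, of which no result is given here. Shares and sums were computed in Python 3.11.15 and carry no p-value. Positions and V regions were taken from GENCODE M21 transcripts on GRCm38, with a V region being the second exon without its first 11 bases; 45 of 85 equalled the RefSeq V segment.

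The genes named come from those past both limits, the 3 most used in each tumor, the most abundant of each subgroup, the 5 largest rises and falls without overlap, the constant genes, Igkc, Jchain, Tgm2 and members of the gene lists; other genes were named after their values were seen. The Ighv genes, lists and tests were chosen with earlier results of these data known. Alternatives changed the pseudocount, filter, scaling, variance trend, weights, replicate block, rows and tumors included. No pair of tumors shared an identical value above 0 at any gene. The single-gene result of 1 gene of the lists is not reported here.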

Additional observations from a re-analysis of the deposited data

How the results depend on the processing

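The number of Ighv genes called higher was 3, and it was also 3 with a pseudocount of 0.1 or 5, no filter, a filter of at least 10 in 3 tumors, median-of-ratios rescaling, quantile normalization or array weights. It was 0 without a variance trend, and between 0 and 4 when 1 tumor was left out: 0 without WT tumor 2, 1 without WT tumor 3 or knockout tumor 1, 2 without WT tumor 1 or knockout tumor 3, and 4 without knockout tumor 2. The count of genes called lower was 0 throughout. Ighv1-72 was past the limits in 12 of 15 alternatives (limma adjusted p 0.000274 to 0.134), Ighv1-53 in 9 (0.0125 to 0.0955) and Ighv1-55 in 8 (0.000634 to 0.204). The log2 fold change ranged from 7.08 to 8.65, 4.54 to 5.31 and 5.93 to 7.63, respectively.

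With replicate number as a block in the model, 0 Ighv genes were called higher. Deviations from the group means correlated over genes at -0.20, 0.28 and -0.31 between WT and knockout tumors of the same number, for numbers 1 to 3. Between tumors of different numbers the correlations ranged from -0.23 to 0.36. Deviations from a mean of 3 tumors are tied to each other, so these values cannot decide whether the numbers pair the tumors.

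The log2 difference of the summed Ighv value was 4.89, between 4.63 and 5.17 when 1 tumor was left out, and 3.13 without the 8 leading genes of the knockout tumors, an alternative chosen after seeing the data. The Ighv1 share differed by 19.2 percentage points, and by 7.72 to 27.3 when 1 tumor was left out. The effective number of genes differed by -11.5, by -14.2 to -9.41 when 1 tumor was left out, and by -7.10 with values under 10 set to 0. Measured as the inverse Simpson index it differed by -3.62, and as genes expected at 1600 counts by -24.9, both chosen after seeing the data. With values under 10 set to 0, the Ighv12 share was higher in knockout tumors by 0.0349 percentage points. The share of genes beyond the median distance differed by 27.8 percentage points, by 22.6 to 36.6 when 1 tumor was left out, and by 15.6 without Ighv1-72, chosen after seeing the data. Over all subgroup shares, 126 of 140 alternatives kept the direction. Low genes in the WT tumors are supported by few reads, and near-identical genes share most of their sequence.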
